A study of Arabidopsis thaliana with 8 samples.

Results

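Class III peroxidases are secreted plant haem enzymes of the cell wall. A list of 60 Arabidopsis thaliana loci of this family was taken, and the 43 of them with a named single-gene probe set were described, out of 13287 genes with such a probe set on the array. Each of the 43 had 1 probe set. Of the remaining loci, 6 were represented only by probe sets shared by several genes and 11 were named by no probe set, and neither kind was analysed here. The RefSeq symbols used are PRXR1 (AT4G21960), Prx37 (AT4G08770) and PRX52 (AT5G05340). The names PRX25 (AT2G41480), PRX71 (AT5G64120), PRX72 (AT5G66390) and PER36 (AT3G50990) are also used, and the other members are given by locus. A member was called bright where its mean normalized log2 intensity over all arrays was at or above the median of all tested probe sets (8.59), and dim otherwise. This gave 20 bright members (lowest mean 8.86) and 23 dim members (highest mean 8.52). Brightness describes a probe set and was not used to rank transcript amounts between genes.

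The study measured total RNA of 5-day-old seedlings, grown in light on vertical plates of diluted Murashige and Skoog medium, on 8 single-colour Affymetrix arrays. All plants were of the Columbia (Col) background, and no group received a treatment. The groups were wild type (2 arrays), aha1 mutants (2 arrays of allele aha1-6 and 1 of aha1-7) and aha2 mutants (2 arrays of allele aha2-4 and 1 of aha2-5), and the kind of mutation in each allele is not given in the labels. AHA1 and AHA2 are proton pumps of the plasma membrane, which acidify the cell wall space. By a string shared between sample descriptions, the arrays fall in a first set of 3, with 1 wild type, 1 aha1-6 and 1 aha2-4 array, and a second set of 5. Each mutant array could thus be set against a wild type array of its own set. What a set stands for is not stated in the labels. The labels do not say whether the arrays of a group stand for separate plates or plantings. The p-values thus reflect the scatter of these 8 arrays, part or all of which may be technical.

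Class III peroxidases act in the wall in opposite ways. They use hydrogen peroxide to couple phenolic compounds, which stiffens walls through lignin, extensin and pectin cross-links, and they can also generate reactive oxygen species that cleave wall polymers. In roots they are known for their part in root hair growth, in the transition from cell division to elongation, where the transcription factor UPB1 represses several of them, and in building the Casparian strip of the endodermis. Others belong to the oxidative burst after pathogen attack.

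The aha1-7 array stood apart from the rest. Its median correlation with the other arrays over the brighter 50% of the probe sets was 0.887, against 0.959 to 0.971 for the others, and at 1201 of those 11373 probe sets it departed over 2-fold from the other arrays, against at most 56 for any other array. Bright peroxidases span 1499 to 2602 bases from gene start to gene end in RefSeq (median 1728.5, against 2388 for all 5910 brighter named genes). On the aha1-7 array the median deviation of the bright peroxidases from the other arrays was -0.51 on the log2 scale, while that of the 2392 brighter genes in the same range of span was -0.21. On the aha2-4 arrays these medians were 0.25 and 0.33 beside 0.084 and 0.092, and on aha2-5 0.10 beside 0.017. On the aha1-6 arrays they were -0.22 and -0.11 beside 0.019 and -0.026. The shares of all brighter probe sets given below are not matched for gene span. The main counts that involve aha1 are followed by their value with aha1-7 left out.

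No peroxidase passed the threshold of 0.05 in any of the 3 comparisons of the fit over all 22746 probe sets (limma, Benjamini-Hochberg adjustment, 0 of 43 each time), and 0% of all probe sets passed. At an unadjusted p under 0.05 there were 3 of 43 for aha1 against wild type, where 5.01% of all probe sets did so, 6 of 43 for aha2 against wild type (4.04% of all) and 13 of 43 for aha1 against aha2 (10.6% of all). In the last comparison 12 of the 13 were lower in aha1, and 5.14% of all probe sets were at that level in that direction. Of the 20 bright members 1, 2 and 8 (lower in aha1) met this unadjusted level in the 3 comparisons, beside 2.44%, 1.69% and 5% of the brighter probe sets. The values below that did not pass are given as values.

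Most bright peroxidases had a lower mean in aha1 than in aha2, and none of the 20 passed. The fitted log2 difference between these mutants was negative for 17 of 20, against 48.9% of the brighter probe sets, with a median of -0.32 beside 0.01 for all brighter probe sets. Without the aha1-7 array 16 of 20 were negative and the median was -0.26. With the trend on gene length removed from each array the median was -0.14, with 14 of 20 negative. The background median of that fit, which covered named genes only, was -0.036. Against wild type, the bright members had a median log2 fold change of 0.21 in aha2 (15 of 20 positive, where 48% of the brighter probe sets were) and of -0.22 in aha1 (16 of 20 negative, where 50.3% were), or -0.15 with 15 of 20 negative without aha1-7. With the length trend removed these medians were 0.17 in aha2 and -0.15 in aha1, beside background medians of 0.0055 and -0.034. These 2 comparisons share the wild type arrays.

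On single arrays, part of the bright peroxidases showed the order aha1, wild type, aha2. At 7 of 20 bright peroxidases every aha1 array lay below its set's wild type array and every aha2 array lay above it, a pattern held by 3.42% of the 11373 brighter probe sets. The opposite pattern was found at 0 of 20, against 3.68%, and without aha1-7 at 1 of 20 (5.23%), AT1G71695. The 7 were AT3G01190, AT2G18980, AT5G17820, AT4G26010, PRX72, AT4G11290 and AT1G68850, and without aha1-7 the count was also 7 (4.87% of the brighter probe sets). Every aha1 array was below every aha2 array at 7 of 20 (9.79% of the brighter probe sets), and at 10 of 20 without aha1-7 (14.8%), while the reverse held at 1 of 20 (10.4%), PRX71, and without aha1-7 at 3 of 20 (14.7%), PRX71, AT5G39580 and AT2G22420. Every aha2 array was above both wild type arrays at 8 of 20 (11%) and below both at 0 of 20 (10.3%). The aha1 arrays were all below wild type at 6 of 20 (8.93%) and all above at 2 of 20 (9.98%), and without aha1-7 at 9 of 20 (17.3%) and 3 of 20 (16.4%). Group means in the order aha1, wild type, aha2 were found for 11 of 20 members, beside 24.8% of the brighter probe sets, and for 10 of 20 with aha1-6 alone (20.9%). In seedling RNA, fewer cells of a type and less RNA per cell cannot be told apart.

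**Figure D1:**
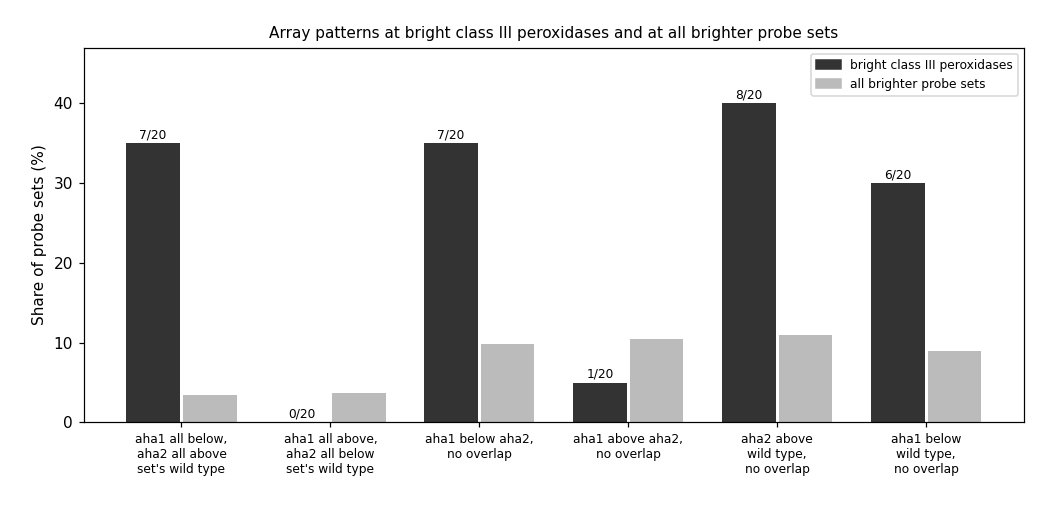
Share of probe sets (%) with each pattern of arrays, for the 20 bright class III peroxidases (dark bars, with counts above) and for all 11373 brighter probe sets (grey bars). The peroxidases with all aha1 arrays below wild type and all aha2 arrays above it number 7 of 20, beside 3.42% of the brighter probe sets.

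**Figure D2:**
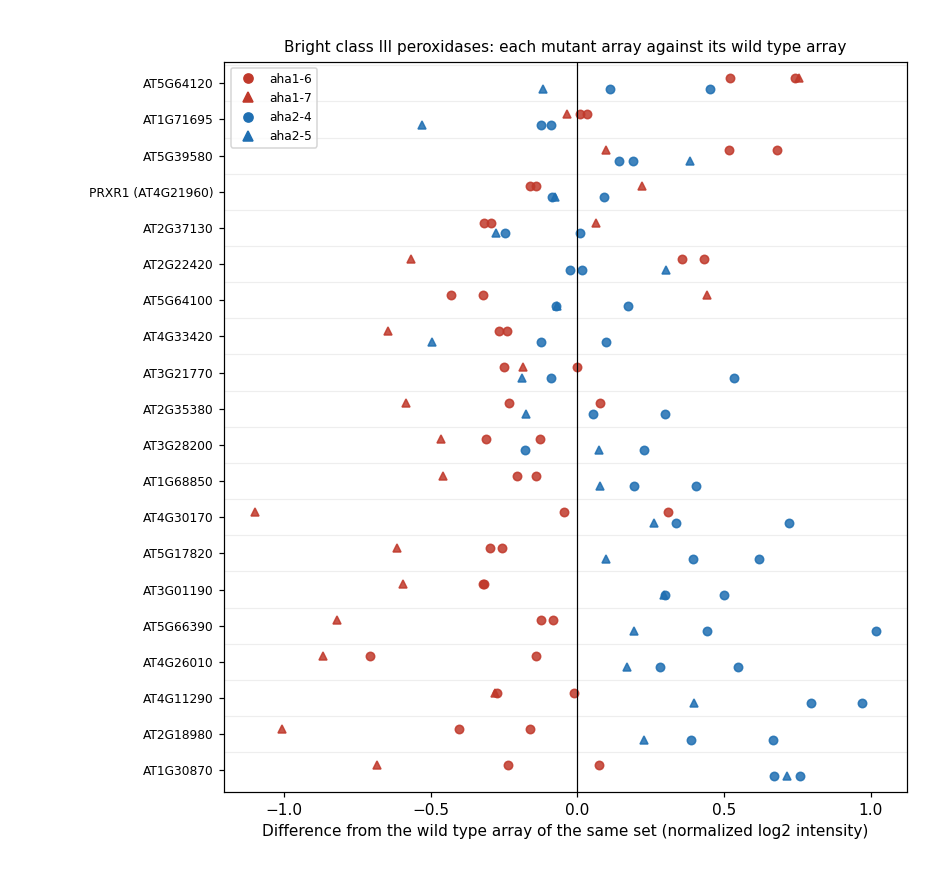
Difference of each mutant array from the wild type array of its set, in normalized log2 intensity, for the 20 bright class III peroxidases, ordered by the fitted difference between aha1 and aha2. Red points are aha1 arrays and blue points aha2 arrays, with triangles for the second alleles aha1-7 and aha2-5. In the lower 9 rows the blue points lie right of 0 and the red points left of it, except for 1 aha1-6 array each at AT1G30870 and AT4G30170, while AT5G64120 (PRX71) at the top has all 3 aha1 arrays to the right.

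Among the bright members, AT1G30870 had the lowest fold change between the mutants. It is on the list of root hair peroxidases used here. Its signal was 913 and 961 on the wild type arrays, 794 and 1023 on aha1-6, 604 on aha1-7, 1497 and 1506 on aha2-4 and 1532 on aha2-5. All 3 aha2 arrays were close together and above every other array, and the aha1 arrays scattered around and below wild type. The normalized level was 10.59 ± 0.025 (SD, n = 3) in aha2, 9.86 ± 0.06 (SD, n = 2) in wild type and 9.59 ± 0.38 (SD, n = 3) in aha1. The difference between aha1 and aha2 was 1.99-fold (log2 fold change -0.9961, SE 0.23, limma, adjusted p = 0.349), with -0.99 and -0.9968 in sets 1 and 2. Without aha1-7 the value in set 2 was -0.62. The aha2 mean stood 1.65-fold above wild type (log2 fold change 0.72, SE 0.26, limma, adjusted p = 1).

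AT4G11290 and AT5G17820 are peroxidases that UPB1 is known to repress in the root tip. The signal of AT4G11290 was 375 and 436 on the wild type arrays, 327 and 432 on aha1-6, 353 on aha1-7, 625 and 810.3 on aha2-4 and 550.4 on aha2-5. The aha2 arrays lay above all others, and the aha1 arrays overlapped wild type. It stood 1.65-fold above wild type in aha2 (log2 fold change 0.72, SE 0.24, limma, adjusted p = 1) and 1.88-fold lower in aha1 than in aha2 (log2 fold change -0.91, SE 0.21, limma, adjusted p = 0.349). AT5G17820, which is on the root hair list as well, gave 2078 and 2151 on the wild type arrays, 1747 and 1767 on aha1-6, 1474 on aha1-7, 2717 and 3397 on aha2-4 and 2284 on aha2-5. Its 3 groups did not overlap, with aha1 lowest and aha2 highest, and the aha2-5 array was the closest of the aha2 arrays to wild type. Without the aha2-4 array of set 2 its value in aha2 against wild type was 0.25. The fold change was -0.38 (SE 0.23) for aha1 and 0.38 (SE 0.23) for aha2 against wild type on the log2 scale, and -0.76 (SE 0.20) between the mutants (limma, adjusted p = 0.937, 1 and 0.389). The third UPB1 target on the array, AT4G16270, was dim and gave 68.3 and 126 on the wild type arrays, 88.1 and 96.9 on aha1-6, 73.7 on aha1-7, 88.9 and 69.8 on aha2-4 and 82.9 on aha2-5. Its groups overlapped, with log2 fold changes of -0.23 and -0.22 in aha1 and aha2.

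AT3G01190 separated the groups with little scatter. Its signal was 4294 and 4299 on the wild type arrays, 3366 and 3452 on aha1-6, 2951 on aha1-7, 5358 and 6469 on aha2-4 and 5466 on aha2-5. The wild type arrays were nearly equal, every aha1 array was below them and every aha2 array above. After normalization, wild type stood at 12.08 ± 0.0097 (SD, n = 2), with aha1 at 11.67 ± 0.15 (SD, n = 3) and aha2 at 12.45 ± 0.12 (SD, n = 3). Between the mutants it differed 1.71-fold (log2 fold change -0.78, SE 0.17, limma, adjusted p = 0.341), which had the smallest unadjusted p of the family in this comparison. Taken by set, the difference was -0.62 in set 1 and -0.86 in set 2, or -0.72 in set 2 without aha1-7.

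AT2G18980 had the same order of groups with a wider spread. The arrays read 3141 and 3303 on the wild type arrays, 2372 and 2955 on aha1-6, 1717 on aha1-7, 4156 and 5518 on aha2-4 and 3918 on aha2-5. No group overlapped another, and the aha1-7 array was the lowest of the 8. The difference between the mutants was 1.93-fold (log2 fold change -0.95, SE 0.27, limma, adjusted p = 0.394), and within set 2 it was -1.03 with aha1-7 and -0.61 without it.

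AT4G26010 is another member of the root hair list. Its signal was 1065 and 908 on the wild type arrays, 679.6 and 829 on aha1-6, 501 on aha1-7, 1258 and 1298 on aha2-4 and 984 on aha2-5. Every aha1 array was below every wild type array, while the aha2-5 array fell between the wild type arrays. It was 1.87-fold lower in aha1 than in aha2 (log2 fold change -0.91, SE 0.24, limma, adjusted p = 0.387), or -0.99 within set 1 and -0.86 within set 2 (-0.50 without aha1-7). Against wild type it was -0.59 (SE 0.27) in aha1 and 0.32 (SE 0.27) in aha2.

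PRX72, a peroxidase of stem lignification, read 1146 and 875 on the wild type arrays, 1104 and 807 on aha1-6, 496 on aha1-7, 1519 and 1758 on aha2-4 and 957 on aha2-5. The aha2-4 arrays were the highest and aha1-7 the lowest, and the aha1-6 arrays and aha2-5 overlapped wild type. The difference between the mutants was 1.86-fold (log2 fold change -0.89, SE 0.31, limma, adjusted p = 0.428). AT1G68850 gave 459 and 488 on the wild type arrays, 435 and 424 on aha1-6, 349 on aha1-7, 582 and 525 on aha2-4 and 495 on aha2-5, which put all aha1 arrays below and all aha2 arrays above both wild type arrays, with log2 differences of -0.24 and 0.25 from wild type and of -0.49 (SE 0.16) between the mutants (limma, adjusted p = 0.414).

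When the fit was limited to the brighter 50% of the probe sets and the aha1-7 array was left out, 5 of 20 bright peroxidases passed between the mutants, all lower in aha1, while 1.67% of the 11373 probe sets passed in that direction. They were AT1G30870 (log2 fold change -0.78, SE 0.14, adjusted p = 0.0182, limma), AT3G01190 (log2 fold change -0.68, SE 0.14, adjusted p = 0.0276, limma), AT4G11290 (log2 fold change -0.86, SE 0.18, adjusted p = 0.0304, limma), AT2G18980 (log2 fold change -0.69, SE 0.16, adjusted p = 0.0436, limma) and AT4G26010 (log2 fold change -0.72, SE 0.17, adjusted p = 0.0481, limma). In this fit aha1 is represented by aha1-6 alone. AT5G17820 was just outside the threshold (log2 fold change -0.65, SE 0.17, adjusted p = 0.0577, limma). With aha1-7 kept, 0 of 20 passed among the brighter 50%, where 0.149% of the probe sets passed as lower in aha1 than aha2, 0% in aha1 against wild type and 0.0264% in aha2 against wild type, and the adjusted p of the 5 was between 0.0948 and 0.133 (limma). Neither mutant had a peroxidase past the threshold against wild type in these fits, where 0.237% of the probe sets passed in aha1 and 0.536% in aha2 without aha1-7. The lowest adjusted p of a member there was for AT1G30870 in aha2 (log2 fold change 0.70, SE 0.14, adjusted p = 0.0655, limma).

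**Figure D3:**
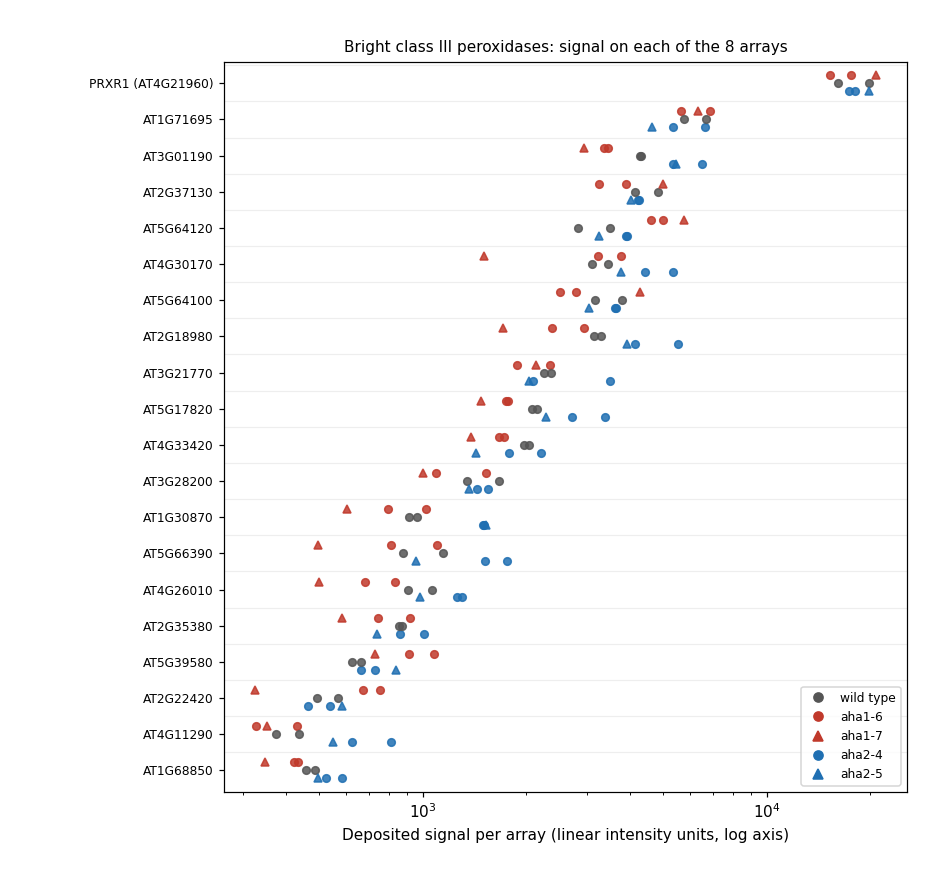
Deposited signal of the 20 bright class III peroxidases on each array (linear intensity units, log axis), with wild type in grey, aha1 in red and aha2 in blue, and triangles for aha1-7 and aha2-5. At AT3G01190 the aha1 arrays read 2951 to 3452, the wild type arrays 4294 and 4299 and the aha2 arrays 5358 to 6469.

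PRX71, known to strengthen walls and to limit cell expansion, lay the other way. Its signal was 2834 and 3511 on the wild type arrays, 4626 and 4988 on aha1-6, 5762 on aha1-7, 3933 and 3912 on aha2-4 and 3262 on aha2-5. All aha1 arrays, both alleles included, were above every other array, and the aha2 arrays overlapped wild type. Its normalized level was 11.63 ± 0.22 (SD, n = 2) in wild type, with the aha1 mean at 12.35 ± 0.17 (SD, n = 3) and the aha2 mean at 11.83 ± 0.14 (SD, n = 3). The fold change was 1.63 in aha1 against wild type (log2 fold change 0.71, SE 0.21, limma, adjusted p = 0.872) and 1.44 in aha1 against aha2 (log2 fold change 0.52, SE 0.18, limma, adjusted p = 0.428). It was the bright peroxidase counted above at the unadjusted level in aha1 against wild type.

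AT5G39580, also on the root hair list, was above wild type in both mutants. The arrays read 622 and 664 on the wild type arrays, 913 and 1078 on aha1-6, 729 on aha1-7, 661 and 726 on aha2-4 and 836 on aha2-5. The aha1-6 arrays were the highest, and the aha2-4 array of the first set nearly matched the second wild type array in signal. After normalization neither mutant overlapped wild type, and the fold changes were 0.43 (SE 0.23) in aha1 and 0.24 (SE 0.23) in aha2 on the log2 scale (limma, adjusted p = 0.937 and 1).

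At a further pair of bright members aha1-7 was the exception within its group. AT4G30170 gave 3449 and 3100.5 on the wild type arrays, 3243 and 3779.8 on aha1-6, 1511 on aha1-7, 4433 and 5329.9 on aha2-4 and 3761 on aha2-5. The aha1-7 array read less than any other, while the aha1-6 arrays overlapped wild type, the aha2-4 arrays were the highest and aha2-5 read as 1 of the aha1-6 arrays did. Its log2 fold change between the mutants was -0.72 (SE 0.39) with all arrays, but -0.38 within set 1 and -0.18 within set 2 without aha1-7. AT5G64100, known from root hair growth in the cold, read 3789.7 and 3162 on the wild type arrays, 2794 and 2515 on aha1-6, 4284 on aha1-7, 3617 and 3659 on aha2-4 and 3041 on aha2-5. There aha1-7 was the highest array and the aha1-6 arrays the lowest, and the group means differed little (log2 fold change -0.14 in aha1 and -0.027 in aha2 against wild type).

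The remaining bright members among the 12 brightest are given next. PRXR1 read 16170.2 and 19807 on the wild type arrays, 15247 and 17573 on aha1-6, 20776 on aha1-7, 18012 and 17315 on aha2-4 and 19793 on aha2-5. The ranges of wild type and both mutants overlapped, and the 95% confidence interval of the log2 difference between the mutants ran from -0.44 to 0.43. AT1G71695 gave 5755 and 6682 on the wild type arrays, 5631 and 6835 on aha1-6, 6322 on aha1-7, 5340.2 and 6613 on aha2-4 and 4649 on aha2-5, with aha2-5 the lowest array and an interval of -0.19 to 0.69. AT2G37130 gave 4141 and 4829 on the wild type arrays, 3249.9 and 3899 on aha1-6, 4995 on aha1-7, 4232 and 4243 on aha2-4 and 4043 on aha2-5, with an interval of -0.47 to 0.45. In both genes the arrays of the 3 groups overlapped.

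AT3G21770 read 2248 and 2359 on the wild type arrays, 1886 and 2351 on aha1-6, 2137 on aha1-7, 2099 and 3503 on aha2-4 and 2039 on aha2-5. A single aha2-4 array was above the rest, and the other 7 lay close together. AT4G33420 read 1965 and 2035 on the wild type arrays, 1673 and 1722 on aha1-6, 1379.7 on aha1-7, 1783 and 2214 on aha2-4 and 1427 on aha2-5. All aha1 arrays, of both alleles, were below both wild type arrays, as were aha2-5 and 1 of the aha2-4 arrays, and the log2 fold change was -0.37 (SE 0.25) in aha1 and -0.16 (SE 0.25) in aha2 (limma, adjusted p = 0.937 and 1). AT3G28200 read 1665 and 1342 on the wild type arrays, 1532 and 1094 on aha1-6, 1005 on aha1-7, 1434 and 1551 on aha2-4 and 1367 on aha2-5. The lowest arrays were aha1-7 and the aha1-6 array of the second set, and the groups overlapped. The other bright members, AT2G35380 and AT2G22420, had log2 differences between the mutants of -0.31 and -0.023, and aha1-7 was the lowest array in both. Without aha1-7 the difference at AT2G22420 was positive, at 0.31, with both aha1-6 arrays above all aha2 arrays, and at AT2G35380 it was -0.18.

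**Figure D4:**
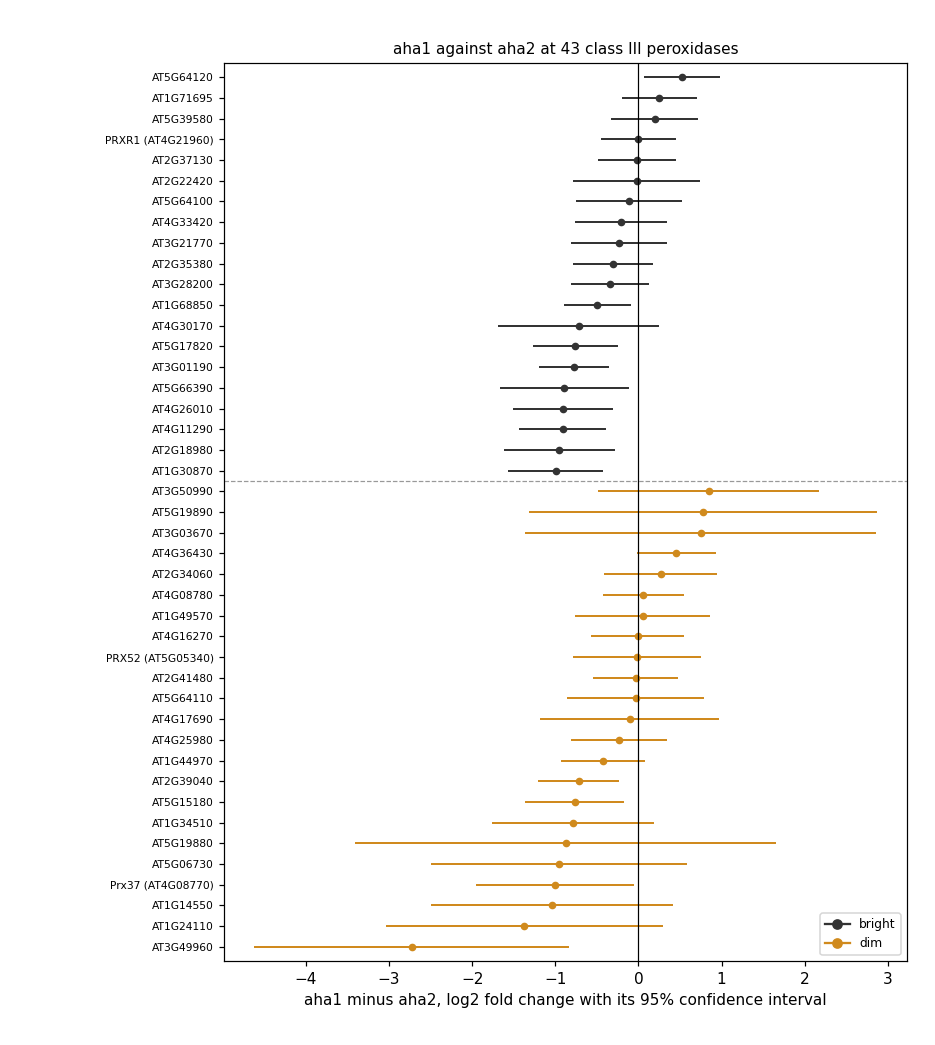
Fitted log2 fold change of aha1 against aha2 with its 95% confidence interval for all 43 class III peroxidases, bright members in dark grey above the dashed line and dim members in orange below it, each ordered by value. Among the bright members 17 of 20 lie left of 0, and the intervals of several dim members are far wider.

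The alleles of each gene were compared array by array, as a description, since each second allele had 1 array. Relative to wild type within the set, the median difference of the bright peroxidases was 0.29 and 0.21 on the aha2-4 arrays and 0.087 on aha2-5, with 14, 17 and 12 of 20 members above. It was -0.19 and -0.15 on the aha1-6 arrays and -0.52 on aha1-7, with 15, 14 and 15 of 20 below. For all brighter probe sets these medians were between -0.014 and 0.045. The aha2-5 array read below both aha2-4 arrays at 15 of 20 bright peroxidases, where 34.3% of the brighter probe sets did. The aha1-7 array read below both aha1-6 arrays at 13 of 20 (38.5% of the brighter probe sets) and was the lowest of all 8 arrays at 12 of 20 (30.8%). The aha2-4 array of the second set was the highest of the 8 at 9 of 20, beside 12.3% of the brighter probe sets.

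The members were also read by role, with lists chosen when earlier results of these data were known. These are the same peroxidases as in the family counts, so the counts by role are not separate results. Of the 9 root hair peroxidases listed, 6 were measured, and the log2 difference of aha1 from aha2 was negative for 5, with a median of -0.83 beside 0.018 over all probe sets. At an unadjusted p under 0.05, 4 of the 6 were lower in aha1, where 5.14% of all probe sets were, and 0 passed after adjustment (limma). The exception was AT5G39580. Their medians against wild type were -0.32 in aha1 and 0.35 in aha2, with 5 of 6 negative and 5 of 6 positive. The summed signal of the 6 was 7028 to 7600 on the aha1 arrays, 7921 to 8613 on the wild type arrays and 8866 to 10822 on the aha2 arrays.

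The 7 measured peroxidases of lignin and Casparian strip formation had no common direction. Their median was -0.14 in aha1 and -0.11 in aha2 against wild type, and -0.023 between the mutants, with 5 of 7 negative. PRX71 and PRX72 were the members at an unadjusted p under 0.05 between the mutants, 1 in each direction. The 5 measured peroxidases of the oxidative burst and defence were all dim. In aha1 all 5 had a negative log2 fold change (median -0.58), and in aha2 3 of 5 did (median -0.70), and none passed after adjustment (limma).

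The 23 dim peroxidases had a median log2 difference between aha1 and aha2 of -0.11, beside 0.029 for all dimmer probe sets, and 16 of 23 were negative, where 47.8% of those were. Without aha1-7 the median was -0.27 with 15 of 23 negative. Every aha1 array was below every aha2 array at 5 of 23, against 6.4% of the dimmer probe sets. After normalization these were AT3G49960, AT2G39040, Prx37, AT1G24110 and AT4G25980. The medians against wild type were -0.20 in aha1 (16 of 23 negative, where 49% of the dimmer probe sets were) and 0.22 in aha2 (13 of 23 positive, where 48.6% were). The dim groups did not overlap wild type at 1 of 23 above (10%) and 2 of 23 below (8.7%) in aha1, and at 3 of 23 above (10.5%) and 2 of 23 below (10.1%) in aha2. The order aha1, wild type, aha2 was found at 8 of 23 (16.8%), and opposite sides of wild type on all arrays at 2 of 23 (1.1%).

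AT3G49960, on the root hair list, had the lowest fold change of the family between the mutants. It read 146 and 74.2 on the wild type arrays, 99.99 and 45.8 on aha1-6, 7.25 on aha1-7, 199 and 235 on aha2-4 and 188 on aha2-5. The aha2 arrays were the highest, and aha1-7 was far below any other array. The log2 fold change was -2.73 (SE 0.77) with all arrays (limma, adjusted p = 0.394), while within sets it was -1.12 in set 1 and -2.31 in set 2 without aha1-7. AT2G39040 read 261 and 216 on the wild type arrays, 243 and 219 on aha1-6, 242 on aha1-7, 379.7 and 417 on aha2-4 and 311 on aha2-5. The aha2 arrays were above all others, and aha1 overlapped wild type. Its log2 fold change was 0.71 (SE 0.22) in aha2 against wild type and -0.72 (SE 0.19) between the mutants (limma, adjusted p = 1 and 0.389).

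AT4G36430 is on the defence list. It read 425 and 576 on the wild type arrays, 331 and 431 on aha1-6, 432 on aha1-7, 229.7 and 349 on aha2-4 and 253 on aha2-5. Every aha2 array was below both wild type arrays, and aha1 overlapped both groups. It was 1.85-fold below wild type in aha2 (log2 fold change -0.88, SE 0.21, limma, adjusted p = 0.886), with the smallest unadjusted p of the family in that comparison. AT1G49570 was above wild type in both mutants and read 68.9 and 38.5 on the wild type arrays, 80.9 and 108 on aha1-6, 119.9 on aha1-7, 94.6 and 74.6 on aha2-4 and 107 on aha2-5. The wild type arrays were the lowest of the 8, and the log2 fold changes were 0.91 (SE 0.37) in aha1 and 0.86 (SE 0.37) in aha2 (limma, adjusted p = 0.937 and 1). The aha1 value was 0.17 without the wild type array of set 2 and 1.52 without that of set 1, and within set 1 the aha1-6 array differed from wild type by 0.0059. Of the other dim members, PRX52, a lignin peroxidase, and PRX25 had log2 differences between the mutants of -0.021 and -0.031. PER36, known from the release of seed coat mucilage, read between 2.37 and 24.8 over all arrays. The 8 dim members not named elsewhere were AT1G14550, AT1G34510, AT1G44970, AT2G34060, AT3G03670, AT4G17690, AT5G06730 and AT5G15180. Their log2 differences between the mutants ran from -1.04 at AT1G14550 to 0.75 at AT3G03670, with 6 of the 8 negative and overlapping groups at all 8.

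**Figure D5:**
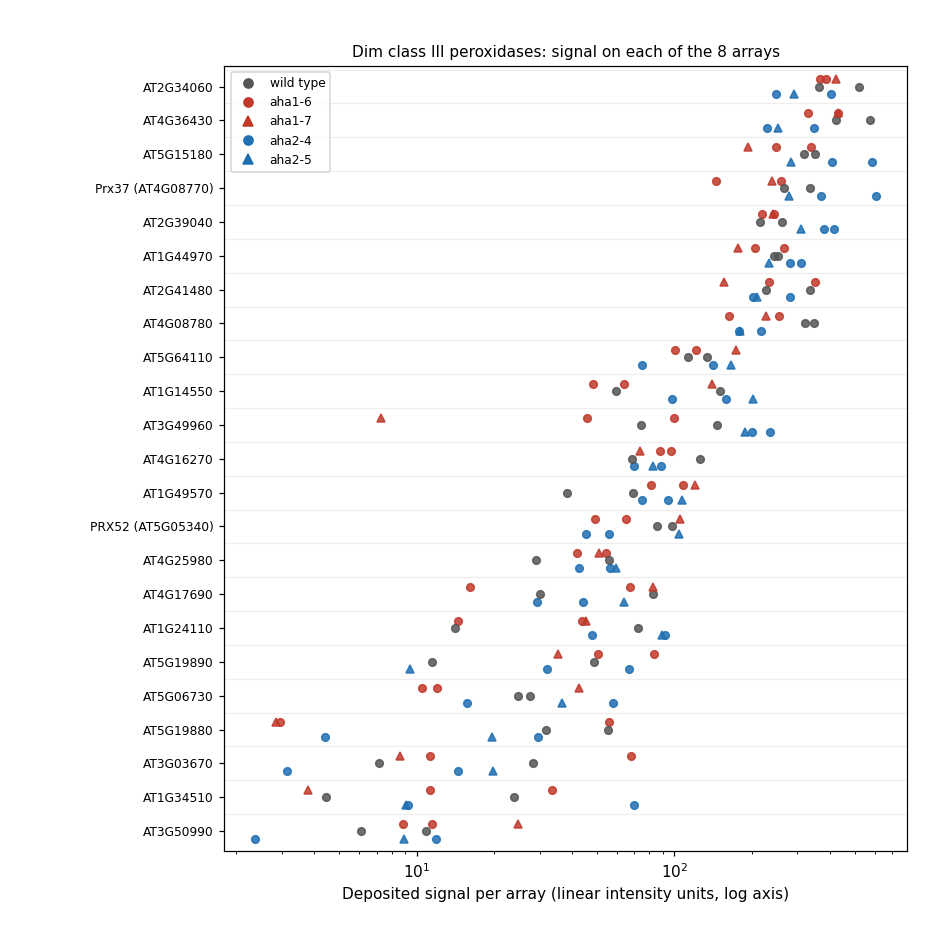
Deposited signal of the 23 dim class III peroxidases on each array (linear intensity units, log axis), with wild type in grey, aha1 in red and aha2 in blue, and triangles for aha1-7 and aha2-5. At AT3G49960 the aha1-7 array reads 7.25 and the aha2 arrays 188 to 235, and at AT4G08780 both wild type arrays lie above all mutant arrays.

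In the RefSeq gene order 4 pairs of measured members are direct neighbours. Prx37, an enzyme linked to phenolic cross-linking in vascular tissue, read 335 and 265 on the wild type arrays, 145 and 259.6 on aha1-6, 239 on aha1-7, 371 and 605 on aha2-4 and 279 on aha2-5. Its neighbour AT4G08780 read 348 and 321 on the wild type arrays, 254 and 163 on aha1-6, 227 on aha1-7, 217 and 179 on aha2-4 and 180.5 on aha2-5. At AT4G08780 every mutant array was below both wild type arrays, with log2 fold changes of -0.65 (SE 0.22) in aha1 and -0.70 (SE 0.22) in aha2 (limma, adjusted p = 0.93 and 1). At Prx37 the aha2 value against wild type was positive, at 0.42 (SE 0.43), and the aha1 value negative, at -0.58 (SE 0.43) (limma, adjusted p = 1 and 0.937). The difference between neighbours was not tested. AT5G64110, the neighbour of AT5G64100 and of PRX71, read 134 and 113 on the wild type arrays, 121 and 101 on aha1-6, 174 on aha1-7, 141 and 75.2 on aha2-4 and 166 on aha2-5. In the run of AT5G64100, AT5G64110 and PRX71, the log2 fold change in aha1 against wild type was -0.14 (SE 0.29), 0.05 (SE 0.37) and 0.71 (SE 0.21). AT5G19880 and AT5G19890 were both dim, with SEs of 1.16 and 0.96 in that comparison.

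Other genes of the pathway were followed through gene lists, of which few members had a named probe set. Extensins, the wall glycoproteins that peroxidases cross-link, were measured at 9 of 17. Their log2 difference of aha1 from aha2 was negative for 7 of 9, with a median of -0.62, 3 were lower at an unadjusted p under 0.05, where 5.14% of all probe sets were, and 0 passed (limma). HRGP1 was the extensin with the smallest p and read 657 and 560 in wild type, 638 and 581 on aha1-6, 518 on aha1-7, 815 and 729 on aha2-4 and 754 on aha2-5, so the aha1 arrays were all below the aha2 arrays. Its probe set and those of 3 other extensins are of a type that may also bind related transcripts. All 3 extensins at that unadjusted level are of this type, so they may share signal, and no extensin with a gene-specific probe set reached it. UPB1 read 112 and 163 in wild type, 179 and 160 on aha1-6, 84.5 on aha1-7, 201 and 119.8 on aha2-4 and 179.8 on aha2-5, and its groups overlapped. The NADPH oxidases that supply superoxide to the wall were measured at 3 of 10, all dim, with 0 past the threshold and medians of -0.15 in aha1 and -0.30 in aha2 against wild type. Monolignol synthesis was measured at 2 of 18 genes (HCT and CCR2), with medians of -0.070 and -0.12, Casparian strip genes at 1 of 8 (GSO1) and laccases at 1 of 17 (LAC16), with 0 past the threshold in each. Of the 10 hydrogen peroxide scavenging genes listed, 0 had a named probe set.

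Markers of root cell types were set beside the peroxidases. The 2 measured root hair markers of 9, the root hair expansins EXPA7 and EXPA18, had lower means in aha1 than in aha2. Their summed signal was 382 to 745 on the aha1 arrays, 719 to 935 in wild type and 939 to 1069 in aha2, and EXPA7 had a log2 fold change of -0.94 (SE 0.31) between the mutants (limma, adjusted p = 0.415). EXPA18 read 296 and 649 in wild type, 363 and 480.03 on aha1-6, 240.2 on aha1-7, 605 and 558 on aha2-4 and 581 on aha2-5, with a log2 fold change of -0.81 (SE 0.35, limma, adjusted p = 0.485). Its wild type arrays lay on both sides of the aha2 arrays, and in set 1 aha1 read above wild type. The 2 measured general root markers of 8, PYK10 and JAL22, summed to 35229 to 46911 in aha1, 35938 to 39388 in wild type and 29294 to 40358 in aha2, with overlapping sums. Most of each sum is PYK10, whose mutant groups overlapped. JAL22 alone read 6354 to 8310 on the aha1 arrays, 6690 and 6473 in wild type and 5160 to 6091 in aha2. Every aha1 array was thus above every aha2 array at JAL22, with a log2 fold change of 0.46 (SE 0.19, limma, adjusted p = 0.473). The 2 measured endodermis genes of 6 summed to 888 to 1315, 627 to 1088 and 774 to 1114 in the same order of groups, and the 1 measured shoot marker of 10, RCA, read 43251 to 53869, 37054 to 40199 and 35269.8 to 57927. The part of root hair number or size in the peroxidase values was not tested.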

How the data were processed

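The deposited table gives 1 linear intensity per probe set and array (8 arrays). Per the submitters' processing notes it came from Expression Console 1.1, and no source used here names the summarisation method. The 2% trimmed mean was 1000.1 on every array. From these intensities log2(value + 1) was computed, and the 22810 probe sets were quantile normalized. The 64 controls were then removed and 22746 probe sets tested with limma 3.58.1 in R 4.3.3 (lmFit, eBayes, group and set as terms, 4 residual degrees of freedom), with Benjamini-Hochberg adjustment over all of them at 0.05. Fold changes are on the log2(value + 1) scale, which understates changes of dim probe sets. Precision is limited by how few arrays there are.

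Gene names come from the platform annotation, joined to RefSeq gene identifiers (TAIR10.1), and gene spans came from the same table. The coordinates of that build are not printed. The targeted genes AHA1 and AHA2 have no named single-gene probe set there, so genotypes are those of the labels. The members, the role lists and the tests were chosen with earlier results of these data known. Values on every array are given for the 12 brightest members and, in each comparison, the 6 bright and 2 dim members with the smallest unadjusted p, with tandem neighbours. Any other member named was picked with its values in view. The alternatives were another offset, no quantile step, no set term, set as a random block, the dimmer 50% left out, array weights, an intensity trend, the gene length trend removed and each array left out. The fit was tested on simulated data.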

Additional observations from a re-analysis of the deposited data

Results flagged for a closer look

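At 9 peroxidases every aha1 array lay below its set's wild type array and every aha2 array lay above it, so that the mutants lay on opposite sides of wild type on all 6 mutant arrays. Among all brighter probe sets 3.42% had this pattern, and among the dimmer ones 1.1%. The difference between the mutants was tested by the fit over all probe sets and did not pass for any of the 9 (limma, adjusted p from 0.341 to 0.458). The 7 bright members had log2 fold changes of aha1 against aha2 of -0.95 (AT2G18980), -0.91 (AT4G11290), -0.91 (AT4G26010), -0.89 (PRX72, AT5G66390), -0.78 (AT3G01190), -0.76 (AT5G17820) and -0.49 (AT1G68850). The 2 dim members were AT3G49960 at -2.73 and Prx37 (AT4G08770) at -1.0011. Some margins from wild type were near 0. On the aha1-6 array of set 2 the log2 difference from wild type was -0.013 at AT4G11290 and -0.018 at Prx37.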

How the results depend on the processing

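For the 24 fold changes tested under alternatives (8 members in each of the 3 comparisons), every value under the other settings had the direction of the reported one, 391 of them on the same side of the threshold. The other 5 crossed the threshold, all between the mutants with the dimmer 50% left out and aha1-7 removed together, where 5 peroxidases passed in place of 0. Over all probe sets 0 passed in each comparison. With the dimmer 50% left out, 3 passed in aha2 against wild type and 20 in aha1 against aha2. With aha1-7 removed as well, 27 passed in aha1 against wild type, 61 in aha2 against wild type and 344 between the mutants, and with an intensity trend in the prior variance 14 passed between the mutants. Leaving out each array in turn over all probe sets gave 0 to 0 probe sets and 0 to 0 peroxidases. The set of 20 bright members was 14 with a mean signal of at least 1000 as the threshold. For counts of bright members by pattern, leaving out aha1-7 was added after seeing the data, and they were then 10 in place of 7 for aha1 below aha2, 3 in place of 1 for aha1 above aha2, 9 in place of 6 and 3 in place of 2 for aha1 below and above wild type, 7 in place of 7 for aha1 below and aha2 above the wild type of the set, 1 in place of 0 for the opposite, 10 in place of 11 for the order of means, and 16 in place of 17 and 15 in place of 16 for negative values against aha2 and wild type. Every member had 1 probe set, so no other probe set could be tried. Replicate numbers are not given in the labels and were not used as a block.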
